A study of Mus musculus with 22 samples.

Results

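The comparison described here sets 2 libraries of untreated J1 mouse embryonic stem (ES) cells against 2 libraries of embryoid bodies at day 4 (D4) with the vehicle, 0.1% dimethyl sulfoxide (DMSO). These 4 libraries were taken by their titles from the 22 of the series, of which 12 are controls without tetrabromobisphenol A (TBBPA), the flame retardant that the study tested at 10 and 100 nM, with 1 library each, on days 4, 9, 12, 18 and 28. Embryoid bodies are aggregates in which ES cells leave self-renewal and begin to form derivatives of the germ layers. J1 is a male mouse ES line of a 129 strain and carries no engineered allele that the labels name. The ES libraries received no treatment and no vehicle, so the change of culture and the DMSO enter at the same step and cannot be told apart. The labels give no culture medium, no feeder layer and no culture of origin, and they name the embryoid body as the source of the ES libraries too, beside the treatment "No treatment" and the title ES.

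Mouse ES cells in self-renewing culture hold the naive state of the epiblast before implantation, kept by a network of transcription factors around Pou5f1 (Oct4), Sox2 and Nanog and by LIF acting through Stat3. On leaving that state, cells pass through a formative and then a primed epiblast state, in which FGF and Nodal signals act, de novo DNA methyltransferases are present and an epithelium forms. Germ layer and visceral endoderm genes follow as the aggregate develops.

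Messenger RNA counts were deposited for each library, with totals of 18440111 to 18738348 estimated reads in the 4 libraries. A gene missing from a library's table was taken as 0; 18187 genes were listed in at least 1 of the 4 libraries and 15227 in all of them. Levels below are CPM, the count of a gene scaled to its library's TMM-adjusted size (the total times edgeR's normalisation factor), given for ES libraries 1 and 2 and then for D4 libraries 1 and 2, and log2 changes are D4 minus ES ± standard error (SE) from edgeR's quasi-likelihood test on the 12 control libraries. "Rose" and "fell" mean an adjusted p under 0.05, and "beyond 2-fold" means that a test against a 2-fold change (glmTreat) passed the same threshold. The ES libraries differed from each other more than any other control pair: the mean chi-square per gene, which is 1 for counting noise, was 21.2 for ES, 3.25 for D4 and 1.61 to 2.27 for the later pairs. Of genes at 10 CPM or more, 87 of 9430 differed over 2-fold between the ES libraries and 4 of 9575 between the D4 libraries. Whether the 2 libraries of a pair stem from different cultures is not stated in the labels, and p-values therefore reflect the spread among these libraries alone, which may be technical. That spread was estimated over all 12 control libraries together, so that SEs and p-values may understate the spread of the ES pair. Against 10090 genes passing, 7484 passed in a fit of the 4 libraries alone and 7770 with a weight for each group (voom). In bulk RNA, fewer cells of a type and less RNA per cell cannot be told apart.

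Over all 16203 genes tested, 62.3% passed, 31.9% (5174 genes) higher and 30.3% (4916) lower at D4. Beyond 2-fold, 20.3% passed, with 1900 genes (11.7%) higher and 1382 (8.53%) lower. The median log2 change over all genes tested was 0.000627. The markers fixed for ES cells (Pou5f1, Nanog, Sox2, Zfp42 and Esrrb) summed to 4954 and 4573 CPM in ES cells and 1553 and 1598 CPM at D4, and 5 of 5 fell. The ES and D4 pairs did not overlap in CPM for 74.1% of the genes tested, so that a lack of overlap was common at this step and is only a description where it is given for single genes. The genes that fell held 41.7% of the CPM in ES cells, and the genes that rose held 35.9% of the CPM at D4. The shares of higher and lower genes are given as the background for the counts of each list below. Members and lists were chosen with earlier results of these data known, so that the list counts are a description and not a test.

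**Figure D1:**
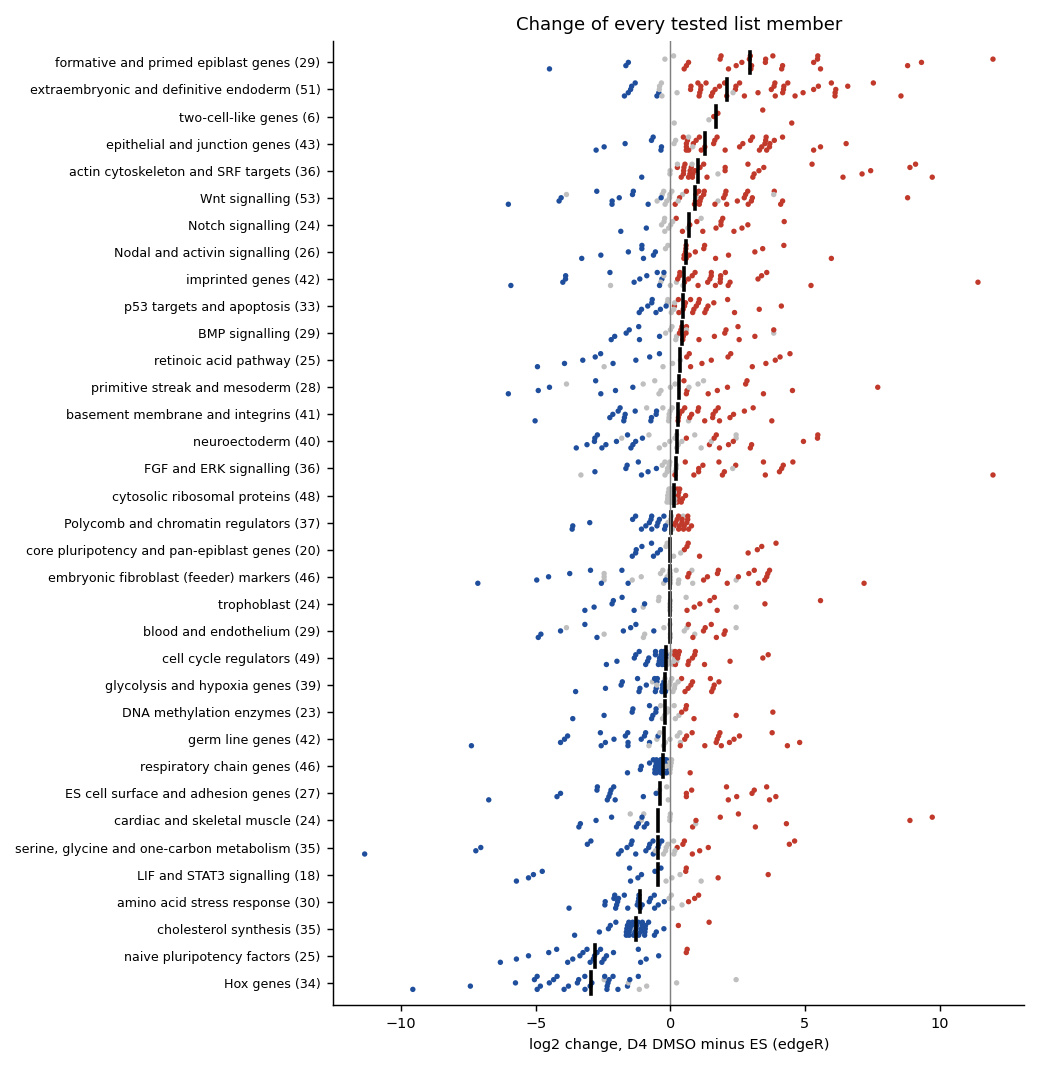
Log2 change (D4 DMSO minus ES, x axis) of every tested member of the 35 gene lists (y axis, tested members in brackets), red where it rose, blue where it fell and grey where it did not pass, with the list median as a black bar. Medians run from -2.95 for Hox genes and -2.82 for naive pluripotency factors to 2.97 for formative and primed epiblast genes.

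All 25 naive pluripotency factors passed, 23 of them lower (against 30.3% of all genes tested) and 20 beyond 2-fold lower (against 8.53%), with a median log2 change of -2.82. Klf4, a Krüppel-like factor driven by LIF, stood at 420.0 and 306 CPM in ES cells and 6.74 and 7.06 CPM at D4. Its change was -5.72 ± 0.16 (adjusted p = 6.15e-11, edgeR), and the pairs lay far apart. The homeobox gene Crxos fell most, from 148 and 118 to 2.03 and 1.31 CPM (-6.31 ± 0.18). Tbx3, a T-box factor of the naive network, went from 323 and 219 to 13.7 and 15.4 CPM and Mitf, the melanocyte factor also present in ES cells, from 55 and 44.7 to 2.21 and 2.14 CPM. Prdm14, which restrains FGF signalling and DNA methylation in ES cells, fell by 3.25 ± 0.11 on the log2 scale. Zfp42 (Rex1), the usual reporter of the naive state, was at 858 and 702 CPM before and 115 and 122 CPM at D4. Nr5a2, a nuclear receptor that can drive Pou5f1, fell by 3.36 and its relative Nr0b1 by 2.54. Klf2 showed the widest ES pair among these, 315 and 178 CPM, and still lay above the 47.3 and 48 CPM of D4. Both members that rose, Dppa3 (Stella; 0.59 ± 0.13) and Dppa4 (0.62 ± 0.08), did so by less than 2-fold. Nanog kept the highest absolute level of the transcription factors that fell over 4-fold, with 277 and 281 CPM at D4 after 1280.2 and 1129 CPM.

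The core pluripotency genes split: of 20 tested, 8 rose, 8 fell and 4 did not pass, with a median of 0.001. Sox2 stood at 723 and 557 CPM in ES cells and 260.0 and 264 CPM at D4, a fall of 1.29 ± 0.09 on the log2 scale. Pou5f1 fell less (-0.70 ± 0.07), and Sall4, a zinc-finger partner of both, did not pass at 215 and 173 and 179 and 179 CPM (it passed without ES library 2, at -0.26). Lin28a, the RNA-binding repressor of let-7 maturation, rose from 53.6 and 30.5 to 623 and 653 CPM, and its paralogue Lin28b from 5.46 and 5.71 to 52.6 and 52.3 CPM. Utf1, a chromatin protein of undifferentiated cells, rose by 2.89 ± 0.11 and the adhesion molecule Epcam by 3.39 ± 0.11. Mybl2, a cell cycle factor abundant in ES cells, fell from 1004 and 975 to 373 and 369 CPM. For each of these genes other than Sall4, both D4 libraries lay on one side of both ES libraries.

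In the LIF and STAT3 list, 10 of 18 tested members fell, 4 rose and 4 did not pass (median -0.46). The direct STAT3 targets Socs3, a feedback inhibitor, and Bcl3 fell from 180.4 and 276 to 6.32 and 7.12 CPM and from 124 and 123 to 4.29 and 4.81 CPM. The receptor subunits fell less: Lifr changed by -1.48 ± 0.07 and Il6st (gp130) by -1.07 ± 0.08. Stat3 itself went from 158 and 160.1 to 58.3 and 52.8 CPM, whereas the kinase gene Jak1 did not pass (it passed without ES library 1, at -0.26). The 4 that rose were Jak2, Ptpn11, Cish and Myc. Myc stood at 2.43 and 0.962 CPM in ES cells and 21.8 and 20.4 CPM at D4.

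Of 29 formative and primed epiblast genes, 24 rose, 3 fell and 2 did not pass, with a median of 2.97. Fgf5, the classical marker of the primed epiblast, had 1 count in the ES pair and 5013 counts in the D4 pair, a ratio of 4937 (95% exact binomial counting interval 886 to 195049.9). Pou3f1 (Oct6), a POU factor of the postimplantation epiblast, rose from 2.79 and 3.49 to 127 and 150.5 CPM (adjusted p = 2.99e-13). Otx2, which opens formative enhancers, rose from 33.5 and 48.5 to 325 and 317 CPM and Sox3 from 1.15 and 0.722 to 40.7 and 43.1 CPM. Car4, a membrane carbonic anhydrase, reached 313 and 315 CPM from 0.849 and 0.12 CPM, the largest change in the list after Fgf5. Wnt8a was listed in neither ES library and stood at 3.16 and 2.85 CPM at D4, at least 16.6-fold higher. Zic2, Sall2 and the kinase gene Pim2 rose by 3.02, 3.53 and 2.93 on the log2 scale. The 3 members that fell were Nkx1-2 (1.64 and 1.32 to 0.0596 and 0.0594 CPM), Etv4 (-1.65 ± 0.10) and Fst (-1.56 ± 0.18). Nkx1-2 marks the later caudal epiblast, Etv4 is an ERK-responsive ETS factor, and Fst binds and inhibits activin.

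**Figure D2:**
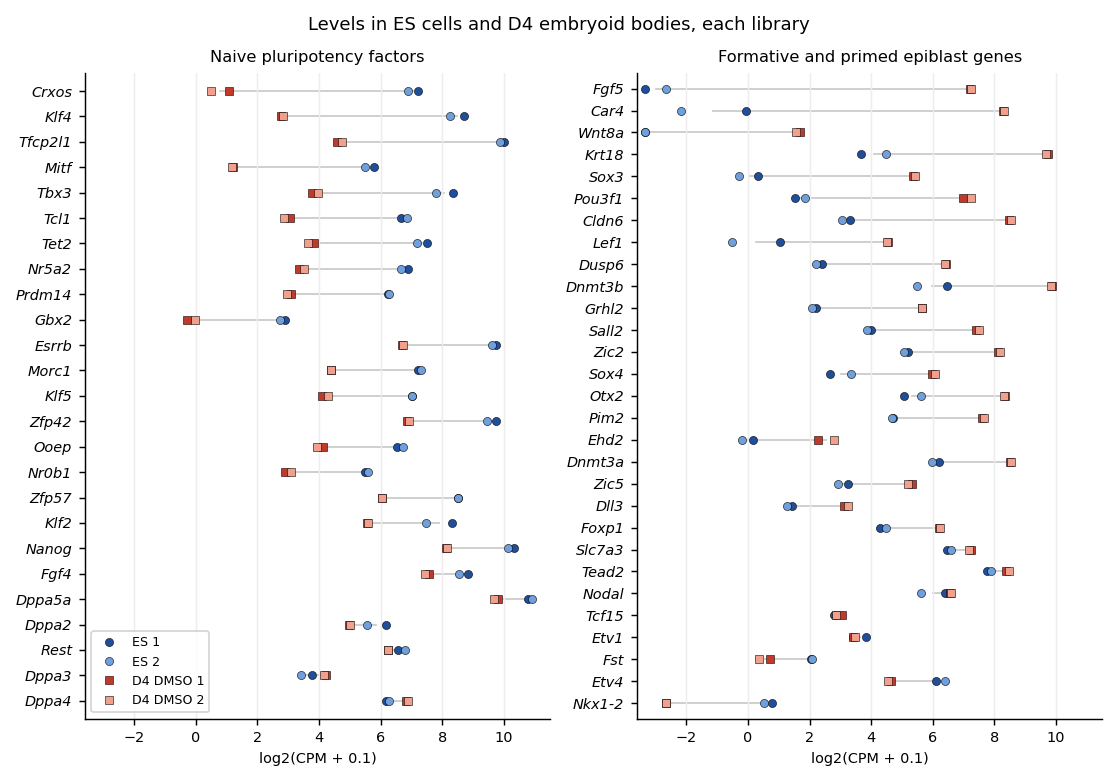
Level of each naive factor (left) and each formative or primed epiblast gene (right) in the 4 libraries, as log2(CPM + 0.1), circles for ES cells and squares for D4, with a grey line joining the group means. Of the naive factors, 23 of 25 have both squares to the left of the circles, and the 24 epiblast genes that rose have both squares to the right.

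DNA methylation enzymes moved in both directions, with 6 of 23 tested higher, 9 lower and 8 not passing. The shares over all genes tested were 31.9% higher and 30.3% lower. The de novo methyltransferases rose, Dnmt3a from 72.7 and 62.7 to 364 and 373 CPM and Dnmt3b from 88 and 44.3 to 935 and 914 CPM. Their cofactor Dnmt3l did not pass, with 69.6 and 40.9 CPM in ES cells and 69.3 and 68.4 CPM at D4 (without ES library 1 it passed, at 0.75). The maintenance enzyme Dnmt1 fell slightly (-0.54 ± 0.05) and its recruiter Uhrf1 more (-1.42 ± 0.05). Of the dioxygenases that oxidise methylcytosine, Tet2 fell from 182 and 144 to 14.1 and 12.3 CPM and Tet1 from 382 and 303 to 127 and 134 CPM. Tet3 rose by 0.88 ± 0.08. Zfp57, which guards methylation at imprinted loci, fell from 360.4 and 367 to 66.1 and 65.9 CPM. Among 37 Polycomb and chromatin regulators, 15 rose and 17 fell, 5 beyond 2-fold. The PRC2 core genes Suz12 (-1.07 ± 0.10), Eed (-0.91 ± 0.07) and Ezh2 (-0.72 ± 0.10) all fell, and the accessory subunit Mtf2 fell from 501 and 449 to 174 and 185 CPM. The PRC1 gene Cbx8 fell by 3.62, while Cbx7, the main Cbx protein of ES cells, changed by 0.30 ± 0.09.

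Of 36 FGF and ERK genes, 17 rose and 7 fell (median 0.22). The ligands moved in opposite directions: Fgf4, the autocrine ligand of ES cells, fell from 456 and 373 to 189 and 174 CPM, while Fgf15 rose from 1.7 and 2.23 to 46.4 and 45.8 CPM and Fgf8 from 0.364 and 0.361 to 3.76 and 4.33 CPM. Of the receptors, Fgfr2 rose from 4.67 and 1.86 to 37.9 and 37.5 CPM, with both D4 libraries above both ES libraries. The ERK phosphatase Dusp6 rose from 5.22 and 4.51 to 86.6 and 84.3 CPM, Dusp4 from 2 and 6.8 to 72.3 and 74 CPM and the immediate early gene Egr1 from 0.485 and 0.602 to 9.3 and 10.8 CPM. Spry1 and Spry4, feedback inhibitors of receptor tyrosine kinases, rose by 2.43 and 1.80. Etv4 fell and its relative Etv5 rose (0.55 ± 0.08).

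In the Nodal and activin list, 16 of 26 tested rose and 8 fell (median 0.57). Nodal itself stood at 84.4 and 49 CPM in ES cells and 94.1 and 96.2 CPM at D4 (0.51 ± 0.19). That change was 0.96 without ES library 1 and 0.17 without ES library 2, and it did not pass without D4 library 1 (0.53) or 2 (0.50). Its coreceptor Tdgf1 (Cripto) fell from 1029 and 1169 to 545 and 511 CPM, and its convertases diverged, Pcsk6 falling by 2.58 and Furin rising by 0.70. The antagonists diverged too. Lefty1 was at 67 and 11.9 CPM in the ES pair, the widest ratio of any gene at 10 CPM or more, and at 746 and 718 CPM at D4 (4.21 ± 0.63). Lefty2 fell from 265 and 149 to 106 and 102 CPM; the pair are close paralogues whose reads could be split between them. Without ES library 1 the change of Lefty2 was -0.53. The activin subunit gene Inhbb fell most, from 11 and 20.6 to 1.37 and 1.84 CPM. The cofactor Foxh1 rose from 53.4 and 57.6 to 134 and 134 CPM.

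Wnt genes rose in 28 of 53 tested and fell in 11 (median 0.93). Among ligands, Wnt4 rose from 0.788 and 0.361 to 7.63 and 9.2 CPM and Wnt3, which induces the primitive streak, from 0.546 and 0.301 to 3.4 and 2.55 CPM. Of the receptors, Fzd7 rose from 35.5 and 46.6 to 298 and 304 CPM and Fzd2 from 11.8 and 11.1 to 81.5 and 88.3 CPM, while Fzd5 fell from 175 and 144 to 35.5 and 35.8 CPM. The secreted inhibitor Sfrp1 fell from 161 and 200.1 to 26.8 and 27.4 CPM and Sfrp2 rose by 2.74. The effector Lef1 rose from 1.94 and 0.602 to 23.3 and 22.5 CPM. Common targets did not follow one direction: Cdx1 fell from 17.3 and 18.2 to 0.298 and 0.237 CPM, Sp5 fell by 1.90 and Notum, which inactivates Wnt ligands, by 4.13, Nkd1 rose by 1.06, and Axin2 did not pass at 26.6 and 14.8 and 16.6 and 17 CPM (it passed without ES library 2, at -0.66).

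BMP genes rose in 15 of 29 tested and fell in 7 (median 0.43). The Id genes, direct targets of BMP receptors, rose in 3 of 4 cases: Id1 from 2.97 and 3.67 to 29.5 and 29.1 CPM, Id3 from 2.49 and 0 to 19.6 and 16 CPM and Id2 from 5.34 and 3.01 to 8.88 and 8.55 CPM. Without ES library 2 the change of Id2 was 0.71 in place of 1.06 ± 0.18. ES library 2 held no Id3 count, so no fold is given for Id3. Id4 fell from 9.4 and 7.28 to 3.28 and 4.1 CPM. The antagonist Chrd fell from 5.16 and 8.6 to 2.56 and 1.84 CPM. Notch genes rose in 13 of 24 tested and fell in 2, Notch4 and the glycosyltransferase gene Rfng (4 fell without ES library 1). Notch3 rose from 74.6 and 49 to 299 and 336 CPM and the ligand Jag2 from 21.5 and 16.2 to 72 and 73.2 CPM. In the retinoic acid pathway, 12 of 25 tested rose and 9 fell, against 31.9% higher and 30.3% lower of all genes tested. The synthesising enzymes Aldh1a2 and Aldh1a3 fell from 1.94 and 1.02 to 0.239 and 0.178 CPM and from 2.12 and 3.73 to 0 and 0.178 CPM (3 counts in the D4 pair, all in library 2), and the degrading enzyme Cyp26a1 rose from 0.485 and 0.782 to 13.8 and 14.1 CPM. The binding proteins went in opposite directions, Crabp1 going from 23.7 and 32.5 to 4.89 and 4.45 CPM and Crabp2 from 2.61 and 1.92 to 33.9 and 33.8 CPM.

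**Figure D3:**
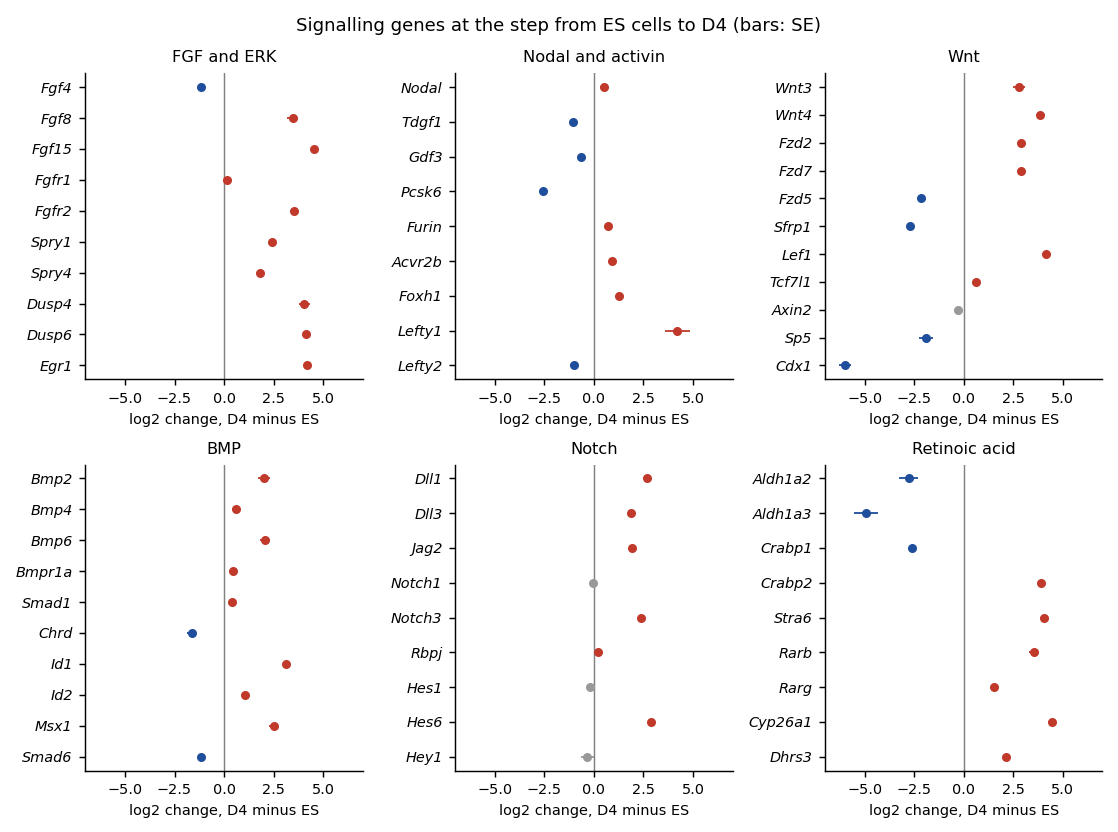
Log2 change (D4 DMSO minus ES, x axis) with its SE for selected ligands, receptors, inhibitors and targets of 6 pathways, red where the gene rose, blue where it fell and grey where it did not pass. Dusp4, Dusp6 and Egr1 lie near 4 in the FGF panel, Axin2 near 0 in the Wnt panel, and Crabp1 and Crabp2 on opposite sides of 0 in the retinoic acid panel.

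Of 51 extraembryonic and definitive endoderm genes, 38 rose, 31 beyond 2-fold, 7 fell and 6 did not pass (median 2.09). Amot, an angiomotin of the visceral endoderm and epiblast junctions, rose from 1.88 and 0.962 to 136 and 138 CPM. Lrp2 (megalin), the endocytic partner of Cubn, rose from 48.3 and 30.9 to 569 and 573 CPM, and Cubn itself by 8.56 ± 0.15. The apolipoprotein gene Apob rose from 1.15 and 0.421 to 55.9 and 53.7 CPM, while Apoa1 and Ttr, plasma carriers of the visceral yolk sac, reached 8.47 and 8.49 and 7.45 and 5.82 CPM. Of the endoderm transcription factors, Foxa2 was at 3.88 and 3.03 CPM at D4, Gata6 at 3.76 and 4.57 CPM and Sox17 at 1.79 and 2.26 CPM, each higher than in ES cells. The change of Gata6 was 3.27 without ES library 2 in place of 2.01 ± 0.33, and that of Sox17 did not pass with voom and group weights (1.66). Foxa1 and Foxa3 did not pass. The basement membrane gene Lama1 (-1.71 ± 0.06) and the homeobox gene Hhex (-1.44 ± 0.18) were among the 7 that fell. All 9 visceral endoderm markers of the marker list rose, and their summed level went from 13.6 and 16.7 to 250.1 and 263 CPM.

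Primitive streak and mesoderm genes were low in all 4 libraries, with sums of 58 and 65.6 CPM in ES cells and 59 and 58.9 CPM at D4. Of 28 tested, 11 rose and 7 fell (median 0.34), and the count of rises was 6 without D4 library 2 and 7 without ES library 1. The LIM homeobox gene Lhx1 rose most, from 0.0607 and 0 to 7.63 and 7.72 CPM, with a single count in the ES pair and a ratio of 254 (95% exact binomial counting interval 45.2 to 10075). Eomes, a T-box factor of the streak, changed by 0.62 ± 0.12 and brachyury (T) was at 0.546 and 0.301 CPM in ES cells and 0.894 and 1.37 CPM at D4. The change of T (1.40 ± 0.38) passed, but not without D4 library 2 (1.07) or ES library 2 (1.04). Mixl1 and Mesp1 did not pass, and the organiser gene Gsc fell from 6.13 and 9.26 to 1.37 and 1.19 CPM. Kdr, the VEGF receptor of early mesoderm, fell from 4.31 and 4.99 to 0.239 and 0.0594 CPM. Of 29 blood and endothelial genes tested, 8 rose and 9 fell, near the 31.9% higher and 30.3% lower of all genes tested. The counts of the streak and mesoderm genes have the same background. Kit (390.1 and 309 to 22.5 and 18.9 CPM) was the most abundant that fell, followed by the adhesion gene Pecam1 (198 and 178 to 28.4 and 28.3 CPM).

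Of 40 neuroectoderm genes tested, 12 were higher and 13 lower (median 0.23). These shares, and those of the trophoblast genes below, lie near the 31.9% higher and 30.3% lower of all genes tested. Sox3, Otx2, Zic2 and Pou3f1, given above, rose, and Sox11 rose from 1.7 and 1.2 to 47.5 and 42.1 CPM. Sox1, the earliest specific marker of the neural plate, fell from 19 and 20 to 1.91 and 1.54 CPM, and the midbrain gene En2 from 15.9 and 11.9 to 2.03 and 1.9 CPM. Hesx1 fell by 2.54, while Pax6 was at 0.607 and 0.842 CPM in ES cells and 2.33 and 2.43 CPM at D4. Of 24 trophoblast genes, 8 rose (5 without D4 library 1) and 7 fell. The keratins Krt8 and Krt18, which are not limited to trophoblast, rose from 27 and 37.8 to 369.8 and 369.8 CPM and from 12.7 and 22.2 to 858 and 809 CPM. The trophoblast factors Gata2, Tfap2a, Tfap2c and Tead4 fell by 3.17, 2.83, 2.17 and 2.12, and Cdx2 did not pass. The placental lactogen gene Prl3d1 was listed at 0 in all 4 libraries.

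Of 34 tested Hox genes, 28 fell and 6 did not pass (median -2.95, or -2.80 with genes at 0 in a pair set to their bound). Their sum was 91.2 and 116 CPM in ES cells and 10.9 and 11.3 CPM at D4. Hoxc13, the most abundant in ES cells, fell from 19.5 and 26.9 to 1.55 and 0.95 CPM and Hoxc4 from 12.3 and 12 to 0.417 and 0.772 CPM. Hoxc12 was at 4.12 and 6.02 CPM in ES cells and listed in neither D4 library, at least 28.4-fold lower. Hoxb9 went from 10.2 and 5.05 to 1.37 and 1.78 CPM and Hoxd9 from 7.1 and 10.2 to 0.596 and 1.31 CPM, so that falls were seen at both ends of the numbering and in clusters b, c and d. These levels are low, and limma on log2(FPKM + 0.1) and on log2(FPKM + 1) called 15 and 14 of them lower.

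Actin cytoskeleton and serum response factor (SRF) genes rose in 30 of 36 cases, 16 beyond 2-fold, and 1 fell (median 1.01). SRF binds the CArG box, a motif of 10 bases, in promoters of muscle and cytoskeletal actins. The list was chosen to hold SRF targets, so that a higher share of this motif in it follows in part from that choice. Over the 300 bases from 250 before to 50 after the RefSeq gene start (GRCm38.p6), a CArG box on either strand was present for 9 of the 32 list members with a promoter in the table, 28.1%, against 1.63% of all 32851 promoters and 1.61% of the promoters of tested genes. Of these 9 members, 8 rose and Filip1l did not pass (it passed without ES library 1, at 1.60, and without D4 library 2, at 1.16). The windows of 5 members are shown because they span the largest and the smallest rises among these 9 and include Srf itself, with the motif in capitals, on the strand of the gene.
Acta1, chr8:123894819-123894868, minus strand: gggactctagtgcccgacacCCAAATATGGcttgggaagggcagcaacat
Actc1, chr2:114052893-114052942, minus strand: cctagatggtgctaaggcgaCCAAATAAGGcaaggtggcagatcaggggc
Myl9, chr2:156775283-156775332, plus strand: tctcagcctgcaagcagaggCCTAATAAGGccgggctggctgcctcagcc
Srf, chr17:46556215-46556264, minus strand: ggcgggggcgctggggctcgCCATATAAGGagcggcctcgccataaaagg
Myl6, chr10:128493030-128493079, minus strand: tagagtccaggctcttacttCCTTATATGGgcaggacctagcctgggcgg
A second match in the Srf promoter lies within the last bases of the Srf window shown, in lower case.

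Acta1, skeletal alpha-actin, with the first of these windows, had 3 counts in the ES pair and stood at 86.8 and 77.9 CPM at D4, a ratio of 909 (95% exact binomial counting interval 311 to 4409). Actc1, cardiac alpha-actin, rose from 0.0607 and 0 to 18.2 and 17 CPM. Myl9, the regulatory light chain of smooth muscle and non-muscle myosin, went from 2.37 and 1.14 to 69.6 and 65.3 CPM, Srf from 66.5 and 54.4 to 121 and 139 CPM and Myl6 from 263 and 262 to 359 and 336 CPM. Members without the motif in this window rose as well, such as Ankrd1, a cardiac ankyrin repeat protein listed in neither ES library and at 3.4 and 3.98 CPM at D4, at least 20.4-fold higher. Tpm1, tropomyosin, was among the 10 largest rises in FPKM, the count per length and depth, from 52.1 and 61.9 to 572 and 568 FPKM. The YAP and SRF targets Ctgf and Cyr61 rose from 19.5 and 13.9 to 145 and 144 CPM and from 21.6 and 15.1 to 202 and 204 CPM. Cnn3, the acidic calponin, was the 1 member that fell (-1.06 ± 0.06); 2 fell without ES library 2. Of 24 tested cardiac and skeletal muscle genes, which include transcription factors beside sarcomeric genes, 8 rose and 9 fell. These counts stand against 31.9% higher and 30.3% lower of all genes tested. Tnnc1 rose to 15.1 and 12.6 CPM at D4, Tnni1 fell by 2.76, and Myod1 was listed at 0 in all 4 libraries.

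Of 43 epithelial and junction genes, 32 rose, 22 beyond 2-fold, and 7 fell (median 1.28). Cdh1 (E-cadherin) was already at 724 and 835 CPM in ES cells and reached 1174 and 1182 CPM. The claudins rose by more: Cldn7 from 4.31 and 10.1 to 110.4 and 99.4 CPM and Cldn3 from 8.86 and 8.6 to 53.7 and 59.2 CPM. Rab25, a GTPase of apical recycling, rose from 2 and 1.32 to 30.7 and 29.1 CPM, Crb3, an apical polarity protein, by 3.31 and Podxl, the apical sialomucin that coats the lumen, from 37 and 36.3 to 439.5 and 434 CPM. The grainyhead and ETS factors went separate ways, Grhl2 rising and Grhl3 (-2.76 ± 0.15) and Elf3 falling. Desmosomal genes were split as well, with Dsc2 at 3.69 ± 0.14 and Dsg2 at -1.68 ± 0.07.

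Basement membrane genes and their laminin chains moved in both directions: of 41 tested, 20 rose and 13 fell. Lamb1 rose from 38.5 and 42.3 to 266 and 277 CPM and Lama5 from 175 and 171 to 561 and 624 CPM, while Lamc1 fell from 854 and 687 to 318 and 305 CPM. Nid1, which links laminin to collagen IV, fell by 5.02 on the log2 scale and Fn1, fibronectin, from 1908 and 1929 to 401 and 406 CPM. Of 27 ES cell surface genes, 13 fell and 11 rose. Mras, a Ras-related GTPase, fell from 76.9 and 64.8 to 0.775 and 0.534 CPM, Epha4 from 126 and 109.7 to 6.56 and 6.17 CPM and alkaline phosphatase (Alpl), the histochemical stain of ES cells, from 414 and 404 to 91.5 and 85.9 CPM. Prom1 and Efnb2 rose by 3.68 and 3.92.

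Markers of embryonic fibroblasts, which serve as feeder cells in many ES cultures, were also present at low levels. The 14 defining fibroblast markers summed to 94.1 and 127 CPM in ES cells and 51.4 and 50.2 CPM at D4. Of these 14, 4 rose and 3 fell, and 6 were at or under 1 CPM in both ES libraries. The fall of Ly6a alone, given below, was about as large as that of the sum. Over the wider list of 46, 16 rose, 9 fell and 21 did not pass, against 31.9% higher and 30.3% lower of all genes tested. The largest rise in that list was that of Thbs1, thrombospondin, from 1.33 and 0.662 to 149 and 145 CPM. Ly6a fell from 48.5 and 71.6 to 0.596 and 0.237 CPM and Vim from 189 and 97.9 to 19.3 and 17.4 CPM, whereas Col1a1, the main collagen of fibroblasts, was at 7.16 and 5.59 and 5.9 and 5.82 CPM and did not pass. The part of such cells in the falls was not tested.

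Cholesterol and fatty acid synthesis genes passed in all 35 cases, 33 of them lower and 20 beyond 2-fold lower, with a median of -1.27. Scd1, the desaturase that makes oleate, fell from 353 and 506 to 34.9 and 38.2 CPM and Scd2 from 1312 and 1228 to 197 and 211 CPM. The factors that drive these genes, Srebf1 and Srebf2, fell by 1.18 and 0.92. Scap, the escort of the SREBP factors, was among the members that rose (0.30 ± 0.08; 0.17 without ES library 2, and not passing in the fit of the 4 libraries alone). The sterol motif TCACNCCAC, searched on both strands, was found in the promoter window of 1 of 24 members (4.17%), Hmgcs1, against 1.24% of all promoters. Hmgcs1, the first committed enzyme, fell from 454 and 499.7 to 182 and 179 CPM.
Hmgcs1, chr13:119690194-119690242, plus strand, motif in capitals: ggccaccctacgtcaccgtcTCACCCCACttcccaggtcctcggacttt

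Of 35 serine, glycine and one-carbon genes, 19 fell and 8 rose (median -0.46). The 3 genes of betaine and dimethylglycine breakdown, Bhmt, Bhmt2 and Dmgdh, lie next to one another in RefSeq's gene order and were all among the 15 largest falls. Bhmt, which remethylates homocysteine with betaine, went from 91.2 and 99.4 CPM to 0 and 0.0594 CPM, with 1 count in the D4 pair and a ratio of 3203 (95% exact binomial counting interval 575 to 126567). Bhmt2 fell from 24.8 and 21.7 to 0.179 and 0.119 CPM and Dmgdh from 64.3 and 62.7 to 0.477 and 0.475 CPM. Of the nearest tested genes on either side, Jmy changed by 0.38 ± 0.11 and Arsb by -0.99 ± 0.19; the change of Jmy was 0.57 and 0.21 without ES libraries 1 and 2, and did not pass without D4 library 2 (0.29). Tdh, threonine dehydrogenase, on which mouse ES cells rely for glycine, fell from 645 and 493 to 69.4 and 65 CPM, and its partner Gcat by 1.46. Chdh, choline dehydrogenase, was low and rose from 0.0607 and 0.0602 to 1.25 and 1.6 CPM.

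Amino acid stress genes, many of them targets of the factor Atf4, gave 23 falls and 3 rises among 30 (median -1.14). Nupr1 went from 57.8 and 130.5 to 6.86 and 7 CPM, Trib3 from 47.7 and 62.1 to 15.4 and 12.9 CPM and Ddit3 (CHOP) from 18.6 and 39.8 to 6.92 and 7 CPM. ES library 2 was the higher of the pair for each of these 3 genes. The tRNA synthetase genes Aars, Nars and Cars fell by 1.20, 1.12 and 1.23, and the cationic transporter Slc7a1 from 249 and 246 to 45.5 and 46.2 CPM. The members that rose were the transporter Slc7a3 (0.68 ± 0.07), the mTORC1 inhibitor Ddit4 (0.90 ± 0.29) and Cebpb (1.05 ± 0.16). The change of Ddit4 was 0.46 and 1.55 without ES libraries 1 and 2, and did not pass without D4 library 1 (0.92) or 2 (0.88).

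Of 39 glycolysis and hypoxia genes, 18 fell and 10 rose (median -0.20), with isoforms moving apart. The hexokinase genes Hk2 and Hk1 fell from 584 and 669 to 181 and 171 CPM and from 389 and 394 to 113 and 115 CPM. Of the phosphofructokinases, Pfkp fell from 390.5 and 469 to 39.2 and 35.8 CPM, while Pfkm rose by 0.82. Of the glucose transporters, Slc2a1 (GLUT1) rose from 454 and 515 to 1666 and 1717 CPM and Slc2a3 (GLUT3) fell from 2446 and 2916 to 1221 and 1229 CPM. Vegfa fell from 88.9 and 152 to 23.9 and 21.5 CPM. Respiratory chain genes fell in 34 of 46 cases, 1 of them beyond 2-fold, and the 1 that rose was Cox6b2, a testis isoform (0.73 ± 0.10). Their median was -0.29, and the fit of the 4 libraries alone called 22 lower. Cytosolic ribosomal protein genes rose in 13 of 48 cases, 27.1% against 31.9% of all genes tested, and did not pass in 35 (median 0.13). That count of rises was 31 without ES library 2 and 22 with scaling by library size alone, and 5 fell without ES library 1. Reads of these genes could also be split with their many pseudogene copies.

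Of the 10 largest gains in FPKM, 5 were ribosomal protein genes, with Rps27 going from 1281 and 1556 to 2162 and 2128 FPKM. The others were Ftl1, ferritin light chain, which rose from 3392 and 3709.7 to 5602 and 5208 FPKM, the elongation factor gene Eef2 (1433 and 1613 to 2063 and 2003 FPKM), Krt18 (8.19 and 14.2 to 559 and 532 FPKM), Tpm1 and cytoplasmic gamma-actin, Actg1 (918 and 621 to 1325 and 1271 FPKM). Without ES library 2 the log2 change of Actg1 was 0.48 in place of 0.72 ± 0.13. The largest losses were those of Dppa5a, an RNA-binding protein of ES cells, from 2527 and 2738 to 1294 and 1206 FPKM, and of Gapdh. The Gapdh values were 4878 and 6348 FPKM in ES cells and 4541 and 4839 FPKM at D4, so that ES library 1 lay closer to the D4 pair than to ES library 2. The change of Gapdh was -0.48 without ES library 1 and did not pass without ES library 2 (-0.08) or D4 library 1 (-0.25). Tmsb10, an actin-binding thymosin, fell from 1882 and 2077 to 1299 and 1325 FPKM and the metallothionein gene Mt2 from 655 and 791 to 324 and 276 FPKM. Ckb, brain creatine kinase, fell from 677 and 468 to 31.1 and 29.1 FPKM and Asns, asparagine synthetase, from 444 and 569 to 97.9 and 95.8 FPKM. Eif2s2, the beta subunit of the initiation factor eIF2, fell from 549.7 and 499 to 132 and 126 FPKM.

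Cell cycle genes moved in both directions, 24 of 49 lower and 15 higher (median -0.16), with 15 lower in the fit of the 4 libraries alone. The D-type cyclins went in opposite directions, Ccnd3 falling from 439 and 407 to 109 and 105 CPM and Ccnd2 rising from 1.76 and 1.38 to 16.3 and 17.8 CPM. Of the inhibitors, Cdkn1a (p21) fell from 275 and 279.6 to 118 and 131 CPM and Cdkn1c (p57) rose from 0.97 and 1.14 to 4.47 and 5.4 CPM. In the p53 and apoptosis list, 20 of 33 rose and 8 fell (median 0.48). The BH3-only genes Bcl2l11 (Bim), Pmaip1 (Noxa), Bbc3 (Puma) and Bmf rose by 2.13, 2.38, 1.33 and 1.04, and the anti-apoptotic Bcl2 rose from 0.182 and 0.481 to 6.2 and 5.58 CPM.

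Germ line genes, many of which are silenced by promoter methylation in somatic cells, rose in 16 of 42 tested and fell in 17 (median -0.22). Over all genes tested, 31.9% were higher and 30.3% lower. The E-box CACGTG is a site of basic helix-loop-helix factors and reads the same on both strands. It was present in the promoter window of 17 of 41 members, 41.5%, against 7.15% of all promoters and 11% of those of tested genes. The motif was chosen for this list, so that these shares are a description and not a test. Of the 17 members with the motif, 8 rose and 4 fell. The others did not pass, apart from Sohlh1, which was not tested. One window each of 2 that rose and 2 that fell are shown because the motif did not go with one direction.
Tdrd1, chr19:56826178-56826223, plus strand: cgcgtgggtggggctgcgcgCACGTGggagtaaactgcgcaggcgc
Sycp3, chr10:88459503-88459548, plus strand: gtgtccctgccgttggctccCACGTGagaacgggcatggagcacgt
Hormad1, chr3:95559600-95559645, plus strand: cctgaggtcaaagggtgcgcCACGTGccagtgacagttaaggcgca
Fkbp6, chr5:135350120-135350165, minus strand: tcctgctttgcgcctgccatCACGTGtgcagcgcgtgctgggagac

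Tdrd1, a Tudor protein of the piRNA pathway, rose from 0.425 and 1.44 to 12.4 and 13.5 CPM and Sycp3, of the synaptonemal complex, from 7.28 and 11.3 to 52.4 and 57.8 CPM. Hormad1, which monitors meiotic synapsis, fell from 31.2 and 25.9 to 8.65 and 10.4 CPM and Fkbp6, a piRNA cochaperone, from 29.1 and 38.4 to 12.1 and 10.6 CPM. Of genes without that motif in the window, Dazl fell from 43.7 and 54.6 to 9.24 and 9.2 CPM, Stra8, the gatekeeper of meiosis, from 10.3 and 14.4 to 0.656 and 0.95 CPM, and Tuba3a from 306 and 303 to 51.6 and 48.9 CPM. Ddx4 (Vasa), which has the motif, rose from 6.07 and 13.8 to 31.7 and 37.2 CPM. Of 18 two-cell-like genes listed, 6 passed the filter on low counts and 4 of these rose (Zscan4b, Zscan4c, Zscan4d and Sp110), with at most 1.78 CPM in any D4 library. Zscan4c did not pass without ES library 1 (1.07), nor Zscan4d without D4 library 2 (0.97). The Zscan4 genes belong to multigene families whose reads could be split between copies, and the count of rises lay between 0, by limma on log2(FPKM + 0.1), and 8, by limma on log2(FPKM + 1) with no filter. Among imprinted genes, 24 of 42 tested rose and 12 fell (median 0.50). Slc22a3, a cation transporter gene, was listed in neither ES library and stood at 19.6 and 17.2 CPM at D4, at least 102-fold higher. Plagl1 fell from 213 and 130.5 to 2.56 and 3.09 CPM, Cobl from 418 and 395 to 26.4 and 24.6 CPM and Peg12 from 14.7 and 11.1 to 0.716 and 1.01 CPM, while Peg10 and Peg3 rose by 1.47 and 1.52.

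Other genes among the 15 largest rises by log2 change came from several families. Gbp2, an interferon-inducible GTPase, and Psmb8, an immunoproteasome subunit, were listed in neither ES library and stood at 49.7 and 54.2 and 26.8 and 22.1 CPM at D4, at least 287-fold and 135-fold higher. Alox5, a lipoxygenase of leukotriene synthesis, was listed in neither ES library and was at least 56.9-fold higher, with 9.42 and 11.2 CPM. Enpp2, the lysophospholipase autotaxin, rose from 0.0607 and 0.12 to 46.6 and 42.4 CPM. Tmem154 and 2610528J11Rik reached 33.2 and 30.4 and 52 and 56 CPM. Among the 15 largest falls, Trpm1, a cation channel gene that Mitf controls in melanocytes, fell from 33.4 and 22.3 to 0.119 and 0.0594 CPM. Spic, an ETS factor of ES cells and macrophages, fell from 26.4 and 18.5 to 0.179 and 0.415 CPM, Saa3, a serum amyloid gene, from 12.7 and 11.9 to 0.0596 and 0.178 CPM and Tlx2, a homeobox gene, from 10.8 and 9.38 to 0.119 and 0 CPM. Serpinb1a, Accsl and Gm13128 fell by 6.82, 6.78 and 6.31. Ffar3, a short-chain fatty acid receptor, and the T-box gene Tbx18 fell from 7.28 and 10.1 to 0.0596 and 0.119 CPM and from 7.46 and 8.48 to 0.119 and 0.0594 CPM.

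The 10 genes at 10 CPM or more whose ES libraries differed most were Lefty1, Gm14308, Zfp936, Hist1h2an, Trf, Ttn, S100a1, Gm12942, Ppp1r10 and Zfp697, and 4 of them did not pass at this step. Ttn, titin, was at 43.6 and 12.8 CPM in ES cells and 2.33 and 2.31 CPM at D4, and Ppp1r10, a phosphatase regulator, at 126 and 38.4 and 194 and 199 CPM. Trf, transferrin, was at 4.97 and 17.2 CPM, with D4 at 4.29 and 3.68 CPM beside the lower ES library. Calls on several of them rested on single libraries. The change of Trf was -1.48 ± 0.52 and did not pass without ES library 2 (-0.32) or D4 library 1 (-1.59) or 2 (-1.37). That of Ppp1r10 was 2.35 and 0.64 without ES libraries 1 and 2 and did not pass without D4 library 1 (1.28) or 2 (1.24). Zfp936 did not pass without ES library 1 (-0.29) or without D4 library 1 (-1.66) or 2 (-1.91), and Gm12942 changed by -1.30 without ES library 2 in place of -2.41 ± 0.50. S100a1 and Zfp697 passed in opposite directions depending on the ES library left out, at -1.07 and 1.10 without library 1 and at 0.68 and -0.57 without library 2. The ratio of the ES libraries moved with gene length: its median log2 (library 1 over 2) was -0.0576 in the shortest quartile of genes and 0.0736 in the longest, against 0.0296 and -0.0136 between the D4 libraries. Its part in these genes was not tested.

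The later control libraries show which levels lasted, as a description without a test. Fgf5 was at 149 CPM on average at D4, 17.6 at D9 and 0.302 at D28, and Pou3f1 at 139, 21.5 and 2.36 CPM. Krt18 stayed high, at 699 CPM at D9 and 333 at D28. Of the genes that fell, Klf4, which is also present in epithelia, stood at 30.9 CPM at D9 and 112 at D28, and Scd1 at 97.9 and 71.8 CPM. Bhmt remained low, with 1.09 CPM at D9 and 0.981 at D28.

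**Figure D4:**
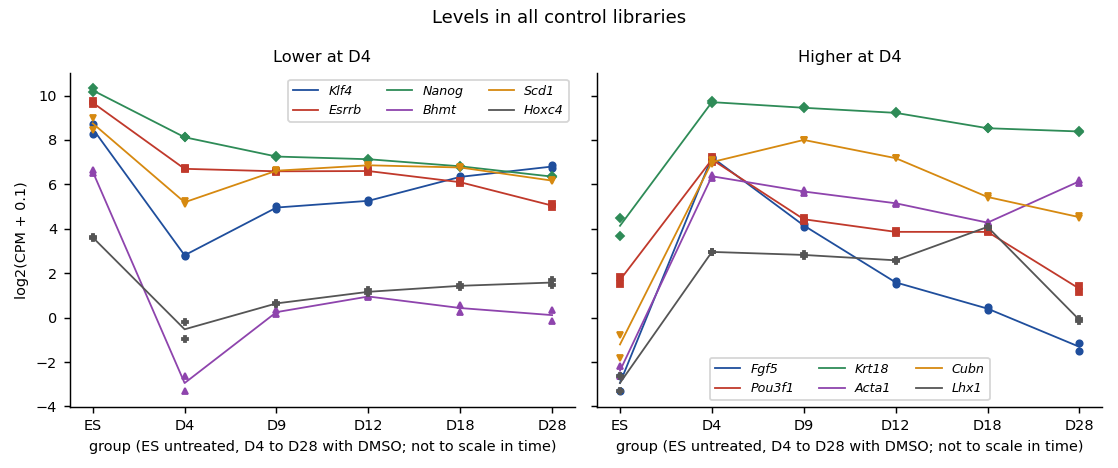
Level, as log2(CPM + 0.1) on the y axis, of 6 genes lower (left) and 6 higher (right) at D4, in ES cells and the DMSO embryoid bodies of D4 to D28 (x axis). Points are the 2 libraries of each group and lines join the group means; Fgf5 and Pou3f1 peak at D4 and Klf4 is lowest there.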

How the data were processed

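RNA from J1 cells (Trizol and RNeasy Plus, per the labels' protocols) was sequenced at BGI. The authors deposited, per the file headers, an expected count and an FPKM value for each gene and library; the submitters' processing notes name HISAT, Bowtie2 and the build GRCm38.p5, with no role given. Genes absent from a library's table entered as 0. Totals of the 22 libraries were 18158583 to 18998141 estimated counts.

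From the deposited expected counts, rounded to whole numbers, edgeR 4.0.16 (R 4.3.3) was fitted to the 12 control libraries (6 groups, TMM, filterByExpr with a minimum of 10 counts and a total of 15, robust quasi-likelihood), with the contrast D4 minus ES, Benjamini-Hochberg adjustment over 16203 genes and a threshold of 0.05. CPM used TMM library sizes. The filter left 2207 genes listed in the 4 libraries untested. A fold against a pair at 0 was computed against 3 counts per library, and pairs with 1 to 3 counts were given a ratio with its 95% interval, which covers counting error only. FPKM values, the authors' deposited unit, were used as levels and, as log2(FPKM + pseudocount), in limma 3.58.1.

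Genes were named by rule: the 15 largest rises and falls in log2 change (mean of at least 2 log2 CPM, no overlap), the 10 largest in FPKM, list members by role or size, members against their list's majority where 5 or fewer, and the 10 with the largest ratio between ES libraries. Some genes that the rule names are not reported here. Members and lists were chosen with earlier results of these data known. Groups shared replicate numbers 1 and 2, which did not pair the libraries.

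Alternatives were DESeq2 1.42.0, other scalings and filters, limma on FPKM with pseudocounts of 0.1 and 1, the 4 libraries alone, all 22 libraries, each library left out, a replicate block, and, chosen after seeing the data, voom with group weights. Counts were also simulated for 15744 genes, with the same spread of a gene in every group. Of 67, 67 and 66 genes changed 1.5-, 2- and 4-fold, 65.7%, 86.6% and 98.5% were recovered, and 5.65% of calls were false. Far fewer genes changed there than at this step, and the ES pair was given no wider spread. These shares may therefore not hold for the calls made here. Promoter windows came from RefSeq (GRCm38.p6). The 10 TBBPA libraries were used only in the fit of all 22.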

Additional observations from a re-analysis of the deposited data

How the results depend on the processing

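Over the alternatives with no library of a pair left out, 7484 (the 4 libraries alone) to 10161 genes (all 22 libraries) passed, against 10090. No named gene that passed changed sign in any of the 16 alternatives. Of 274 such genes, 13 missed the threshold in at least 1 alternative that tested them. A gene that the filter of an alternative removed was not counted as missed there. Replicate numbers gave no sign of pairing (correlations of the within-pair differences from -0.033 to 0.054); with the replicate block 10006 genes passed. Of the list counts, 557 of 576 values stayed within 1.5 times. Two-cell-like genes higher were 2 with DESeq2, 0 with limma on log2(FPKM + 0.1), 1 on log2(FPKM + 1), 8 on that scale with no filter and 2 with voom, and 4 to 6 with a library left out. Primitive streak genes higher were 6 in the 4 libraries alone and 5 with voom (6 to 8 with a library left out), and trophoblast genes higher 5 and 5 (5 to 8). In the 4 libraries alone, 22 respiratory genes and 15 cell cycle genes were lower (25 to 36 and 18 to 27 with a library left out). Ribosomal protein genes higher were 6 in the 4 libraries alone and 22 with library size alone (9 to 31). Hox genes lower were 15 and 14 with limma on log2(FPKM + 0.1) and log2(FPKM + 1) (24 to 29). The cause of these moves was not tested. With a library left out, its partner is assumed to vary like the other groups. With 2 libraries a group, counts under 3 in a pair give no precise fold.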

Other observations

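Interferon-inducible and antigen-processing genes were not among the 35 lists and were collected into a list of 46 genes after their values were seen, so their counts are a description. Of 44 listed in a library, 43 were tested, 33 rose and 8 fell, with a median log2 change of 2.87, against 31.9% and 30.3% of all genes tested. The guanylate-binding protein genes Gbp7, Gbp3, Gbp2b and Gbp2 follow one another in RefSeq's gene order (GRCm38.p6). Gbp2b went from 0.121 and 0 to 48.1 and 46 CPM, Gbp7 from 0.0607 and 0 to 19.9 and 21.2 CPM and Gbp3 from 0.0607 and 0 to 12.6 and 10.9 CPM, and Gbp2 was listed in neither ES library. These are near relatives whose reads could be split between copies. The next gene, Kyat3, fell from 23.2 and 15.7 to 3.46 and 2.91 CPM.

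The immunoproteasome genes Psmb9 and Psmb8 and the peptide transporter genes Tap1 and Tap2 also lie side by side. Psmb9 rose from 0.364 and 0.241 to 10.3 and 10 CPM, Tap1 from 2.12 and 3.13 to 51 and 52.7 CPM and Tap2 from 0.546 and 0.902 to 26.8 and 27.7 CPM. Among the 8 members that fell were Ifitm1, Ifitm2, Ifitm3, Irf9, Oas1a, Stat2 and Xaf1. Ifitm1 (-0.37 ± 0.13) did not pass without ES library 1 (-0.09) or D4 library 2 (-0.28) and changed by -0.60 without ES library 2, and the change of Ifitm3 (-0.61 ± 0.10) was -0.41 without ES library 1. Stat2 (-1.31 ± 0.11) carries the interferon signal to the nucleus.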
